A study of Mus musculus with 8 samples.

Results

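The genes described here are 9 members of the Notch pathway, namely the 3 receptors *Notch1*, *Notch2* and *Notch3*, the 2 ligands *Jag1* and *Jag2*, and the 4 target genes *Hes1*, *Hey1*, *Heyl* and *Nrarp*. They were chosen by gene symbol from a count table with 55421 gene identifiers. All 9 had a row in the table, and all 9 were among the 20477 genes that passed the filter on low counts. Each library held between 48 and 9414 reads of each of these genes, which together took 0.0647% to 0.0719% of its counts.

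Notch receptors are membrane proteins that bind Jagged or Delta-like ligands on a neighbouring cell. Binding lets a metalloprotease and then gamma-secretase cut the receptor, and the freed intracellular domain enters the nucleus, where it joins the DNA-binding protein RBPJ and a Mastermind coactivator and turns on target genes such as those of the Hes and Hey families. In the testis, ligands on germ cells are known to act on Notch receptors of Sertoli cells, the somatic cells that feed the germ line.

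The libraries come from spermatogonial stem cell (SSC) cultures, that is, undifferentiated male germ cells derived from C57BL/6 X DBA/2 F1 pups at 6 days of age. All cultures shared a feeder layer of irradiated mouse embryonic fibroblasts (MEFs), whose RNA may also have been sequenced. The Veh cultures were given vehicle in complete SSC medium, and the RA cultures 100 nM retinoic acid. For nutrient restriction (NR), complete medium was cut to 10% and the other 90% was Earle's balanced salt solution (EBSS), a salt buffer with glucose. NRRA cultures had the restricted medium plus 100 nM retinoic acid. Complete medium also held the growth factors GDNF and FGF2, so NR and NRRA cultures received less of both along with less of the nutrients. The part of the lower growth factor dose in the differences of NR and NRRA was not tested. The sample labels and the study's list of medium components give different GDNF doses. Treatment lasted 2 days, and each condition has 2 libraries from independent biological replicates. The comparisons ask how RA, NR and both together change the expression of the Notch genes, and whether the response to RA differs between the media.

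Total counts ran from 19261333 to 30023585 per library. Expression levels are given as CPM, counts scaled to a common library total after edgeR's TMM scaling of the library totals, so that 1 CPM stands for about 20 to 30 reads. Differences are log2 fold changes from edgeR's quasi-likelihood fit over all 8 libraries, with their standard error (SE) and a Benjamini-Hochberg adjusted p over all 20477 genes. A gene is said to rise or fall at an adjusted p under 0.05. All 7 germ cell markers with a row in the table were detected, with a summed level of 777 to 1060 CPM over the 8 libraries. The 14 fibroblast markers summed to 9450 to 25200 CPM, so fibroblast RNA was present in every library.

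Promoter sequences are shown for 3 genes, because Notch signalling is read out at promoters. *Jag1* and *Nrarp* are the members that fell at least 2-fold in RA, and *Hey2* was chosen by its response and its motif matches together. RBPJ is known to bind sites with the core GTGGGAA, and Hes and Hey proteins are known to bind class C sites (CACGNG), N boxes (CACNAG) and E boxes (CACGTG). Windows of 300 bases, from 250 before to 50 after a RefSeq start on GRCm38.p6, were searched on both strands. A window was at hand for 6 of the 9 genes, and the windows of *Hes1*, *Hey1* and *Heyl* were not analysed here. GTGGGAA was found in 0 of the 6 windows and in 6.38% of all 32851 windows. CACGNG was found in 5 of the 6 (*Notch2*, *Notch3*, *Jag1*, *Jag2* and *Nrarp*) and in 27.5% of all windows. CACNAG was found in 4 of the 6 (*Notch1*, *Notch2*, *Notch3* and *Nrarp*) and in 42.5% of all windows. CACGTG was found in 1 of the 6 (*Nrarp*) and in 7.15% of all windows. A CACGTG is also a CACGNG, and the letters CACGAG match CACGNG and CACNAG at once. These are matches of letters and not measured binding sites. Below, the letters in capitals are CACGNG for *Jag1*, CACNAG and CACGTG for *Nrarp*, and GTGGGAA for *Hey2*, each on either strand. All run 5′ to 3′ on the strand of the gene. They are *Jag1* chr2:137116645-137116770 (minus strand), *Nrarp* chr2:25180508-25180757 (plus strand) and *Hey2* chr10:30842774-30843033 (minus strand). Each printed stretch is a part of the searched window of 300 bases. That of *Jag1* (126 bases) and that of *Nrarp* (250 bases) end at the annotated gene start. That of *Hey2* (260 bases) runs past this start, so that both its matches are shown. *Hey2* is not among the 9 genes and is shown as a Hey gene that rose in each treatment and whose window holds 2 matches to GTGGGAA. The window of *Hes5*, which rose in NR, also held 2 matches, that of *Hes7*, which rose in RA and fell in NR, held 1, and that of *Rbpjl*, which fell in RA and NRRA, held 1. The windows of *Rbpj*, *Maml2* and *Bhlhe41*, which also differed from Veh by at least 2-fold in NRRA, held 0.
Jag1: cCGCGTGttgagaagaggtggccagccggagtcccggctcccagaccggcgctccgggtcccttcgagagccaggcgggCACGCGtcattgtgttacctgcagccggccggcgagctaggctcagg
Nrarp: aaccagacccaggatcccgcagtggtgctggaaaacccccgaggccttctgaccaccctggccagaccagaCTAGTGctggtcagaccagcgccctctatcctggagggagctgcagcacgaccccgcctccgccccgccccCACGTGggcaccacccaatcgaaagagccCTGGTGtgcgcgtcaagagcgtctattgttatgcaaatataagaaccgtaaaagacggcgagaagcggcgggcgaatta
Hey2: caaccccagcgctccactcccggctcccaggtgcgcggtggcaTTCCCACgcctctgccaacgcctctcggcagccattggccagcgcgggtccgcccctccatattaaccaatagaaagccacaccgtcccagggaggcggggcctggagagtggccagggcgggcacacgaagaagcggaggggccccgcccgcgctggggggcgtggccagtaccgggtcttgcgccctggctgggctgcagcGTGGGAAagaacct

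In each treatment, most of the 9 genes differed from Veh, and so did a large share of all genes. In RA, 2 genes rose and 5 fell, where 19.8% of all tested genes rose and 23.4% fell. In NR, 4 rose and 4 fell (21.7% and 22.2% of all tested genes), and in NRRA 4 rose and 5 fell (30.1% and 28.7%). NRRA was higher than RA for 4 genes and lower for 3 (20.9% and 19.4% of all tested genes), and higher than NR for 2 and lower for 4 (21.3% and 22.1%). The interaction is the log2 response to RA under nutrient restriction minus that in complete medium. It passed for 5 of the 9 genes, 4 positive and 1 negative, beside 6.37% positive and 6.58% negative among all tested genes. Well-counted genes pass more easily. Among the 13812 genes with at least the mean count of the least abundant of the 9, the share that passed in either direction was 54% in RA, 55.4% in NR, 70.2% in NRRA and 17.5% for the interaction.

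With a fold of at least 2 as well, 2 genes passed in RA (*Jag1* and *Nrarp*, both lower), where 7.49% of all tested genes did. In NR it was *Jag1* alone (8.29% of all tested genes), and in NRRA *Jag2*, which was higher, and *Notch1*, which was lower (15.9%). Between NRRA and RA, 1 gene passed (*Jag1*, higher; 8.29%), between NRRA and NR 0 of 9 did (8.7%, with 6 of the 9 past the adjusted p alone), and 1 passed for the interaction (*Nrarp*; 2.24%).

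The Jagged ligands gave the largest differences of the 9 genes, and their responses to RA in complete medium went in opposite directions. RA lowered *Jag1* and raised *Jag2*, NR raised both, and NRRA raised *Jag2* most. *Jag1* (ENSMUSG00000027276) spans chr2:137081456-137116644 on the minus strand of GRCm38. Its level was 61.8 and 64.9 CPM in the Veh libraries, 27.4 and 26.5 with RA, 125 and 133 in NR, and 89.1 and 82.2 with NRRA. The 4 conditions did not overlap, and their order from low to high was RA, Veh, NRRA, NR.

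Against Veh, *Jag1* fell by 1.23 on the log2 scale in RA (SE 0.065, edgeR adjusted p = 2.93e-14), that is, to 0.425 of the Veh level. It rose 2.04-fold in NR (log2 1.03, SE 0.0558, edgeR adjusted p = 2.78e-14) and 1.35-fold in NRRA (log2 0.43, SE 0.0564, edgeR adjusted p = 2.47e-07). Within nutrient restriction, RA again lowered *Jag1*, with NRRA at 0.664 of the NR level (log2 -0.59, SE 0.0525, edgeR adjusted p = 6.1e-10). NRRA stood 3.18-fold above RA (log2 1.67, SE 0.0615, edgeR adjusted p = 5.09e-18), the largest of all differences tested for the 9 genes.

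*Jag2* (ENSMUSG00000002799) spans chr12:112907819-112929776 on the minus strand. Its level was 30.3 and 27.3 CPM in Veh, 36.3 and 38.8 with RA, 37.4 and 36.8 in NR, and 71.9 and 72.6 with NRRA. RA and NR alone gave nearly the same small rise, and the NRRA libraries stood apart from all others. The rise was 1.31-fold in RA (log2 0.39, SE 0.0684, edgeR adjusted p = 4.36e-05) and 1.29-fold in NR (log2 0.37, SE 0.0687, edgeR adjusted p = 9.13e-05). In NRRA it was 2.51-fold (log2 1.33, SE 0.063, edgeR adjusted p = 8.14e-16). NRRA was also above RA (1.92-fold, edgeR adjusted p = 4.47e-13) and above NR (1.95-fold, edgeR adjusted p = 4.49e-13).

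**Figure D1:**
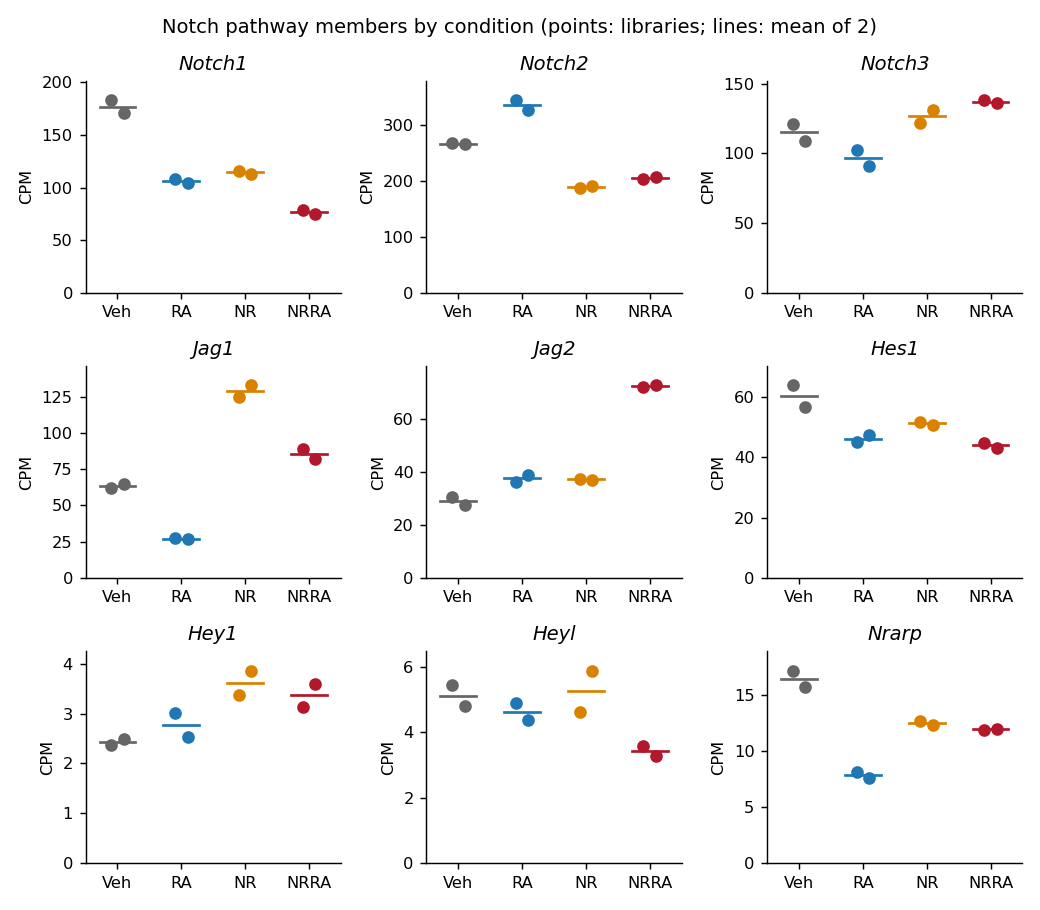
Level of each of the 9 Notch genes in CPM (vertical axes, each from 0) in the 4 conditions; points are libraries and lines the mean of the 2 libraries. *Jag1* runs from 26.5 CPM in an RA library to 133 in an NR library, *Jag2* is highest in NRRA (71.9 and 72.6 CPM), and *Notch1* is lowest there (78.8 and 75 CPM).

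The ratio of the ligands therefore moved with RA in both media. Levels of different genes were compared as CPM per kilobase of exon length, taken over the exons of all annotated transcripts of a gene (14232 bases for *Notch1*). Exons that few transcripts use count in full, so orders and shares of genes per kilobase depend on the annotation. On this scale, *Jag2* stood at 0.41 and 0.351 of *Jag1* in the Veh libraries and at 1.11 and 1.23 of it in RA. The ratio was 0.25 and 0.232 in NR, and 0.676 and 0.738 in NRRA. *Jag2* was the more abundant ligand in the RA libraries alone. The summed level of both ligands was 15 CPM per kilobase in each Veh library, 9.92 and 10.1 with RA, 26.8 and 28 in NR, and 25.6 and 24.5 with NRRA, so the sum was higher in every restricted library than in any library of complete medium.

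The 3 receptors responded in 3 different ways. *Notch1* was lower than Veh in every treatment, *Notch2* rose with RA in complete medium but fell under both forms of nutrient restriction, and *Notch3* fell with RA alone and was highest in NRRA. *Notch1* (ENSMUSG00000026923, chr2:26457903-26516663, minus strand) encodes the receptor best known from T cell development. It was at 183 and 171 CPM in Veh, 108 and 104 with RA, 116 and 113 in NR, and 78.8 and 75 with NRRA. Each treated condition lay below Veh and NRRA lay below both single treatments, with no overlap of libraries.

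*Notch1* fell by 0.74 on the log2 scale in RA (SE 0.0495, edgeR adjusted p = 3.3e-12), by 0.63 in NR (SE 0.0492, edgeR adjusted p = 5.44e-11) and by 1.2 in NRRA (SE 0.05, edgeR adjusted p = 4.57e-17). The NRRA level was 0.434 of that in Veh. NRRA was also lower than RA (log2 -0.46, edgeR adjusted p = 2.91e-08) and lower than NR (log2 -0.58, edgeR adjusted p = 4.64e-10).

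*Notch2* (ENSMUSG00000027878, chr3:98013527-98150361, plus strand) was at 267 and 266 CPM in Veh, 344 and 326 with RA, 187 and 191 in NR, and 204 and 206 with NRRA. RA lay above and both restricted conditions below Veh. The rise in RA was 1.26-fold (log2 0.33, SE 0.0416, edgeR adjusted p = 3.52e-07). *Notch2* fell by 0.49 on the log2 scale in NR (SE 0.0425, edgeR adjusted p = 3.36e-10) and by 0.38 in NRRA (SE 0.0419, edgeR adjusted p = 1.86e-08). NRRA was 0.612 of RA (log2 -0.71, edgeR adjusted p = 1.06e-13). The gap of NRRA over NR was small, 1.08-fold (log2 0.12, SE 0.0422, edgeR adjusted p = 0.0279), and DESeq2 gave an adjusted p of 0.12 for it. That call was also lost without either NR or either NRRA library, with edgeR adjusted p from 0.0917 to 0.288.

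*Notch3* (ENSMUSG00000038146, chr17:32120820-32166852, minus strand), known for its role in the smooth muscle of vessels, was at 121 and 109 CPM in Veh, 102 and 91.2 with RA, 122 and 131 in NR, and 138 and 136 with NRRA. RA libraries were the lowest and NRRA libraries the highest. *Notch3* fell by 0.25 on the log2 scale in RA (SE 0.0585, edgeR adjusted p = 0.000976) and rose by 0.25 in NRRA (SE 0.0565, edgeR adjusted p = 0.000412). NRRA was 1.42-fold above RA (log2 0.50, SE 0.0566, edgeR adjusted p = 3.93e-08). The rise in NR was small (log2 0.14, SE 0.0574, edgeR adjusted p = 0.0488) and did not hold up. DESeq2 gave an adjusted p of 0.122, and without Veh replicate 2, NR replicate 2, NRRA replicate 1 or NRRA replicate 2 the edgeR value was 0.234, 0.3, 0.0744 or 0.0746. The fall in RA was log2 -0.17 without RA replicate 2 (edgeR adjusted p = 0.0716). NRRA and NR differed by log2 0.11 (SE 0.0555, 95% interval 0 to 0.23, edgeR adjusted p = 0.11), but by 0.13 at an adjusted p of 0.00528 after a correction for GC content and length.

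Per kilobase, *Notch2* was the most abundant receptor in every library. It made up 47.1% and 49.1% of the receptor sum in Veh, 61.1% and 62% with RA, 42.7% and 42.4% in NR, and 45.6% and 46.4% with NRRA. The share of *Notch1* was 24.5% and 24% in Veh and 13.3% and 12.8% in NRRA, with 14.6% and 14.9% in RA and 20.1% and 19% in NR between them. *Notch3* held 28.4% and 26.9% in Veh, 24.3% and 23.1% with RA, 37.2% and 38.6% in NR, and 41% and 40.8% with NRRA. RA thus went with a smaller *Notch1* share in both media, and NR with a larger *Notch3* share. The receptor sum itself was 52.5 and 50.2 CPM per kilobase in Veh, 52.1 and 48.8 with RA, 40.6 and 41.9 in NR, and 41.5 and 41.2 with NRRA.

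**Figure D2:**
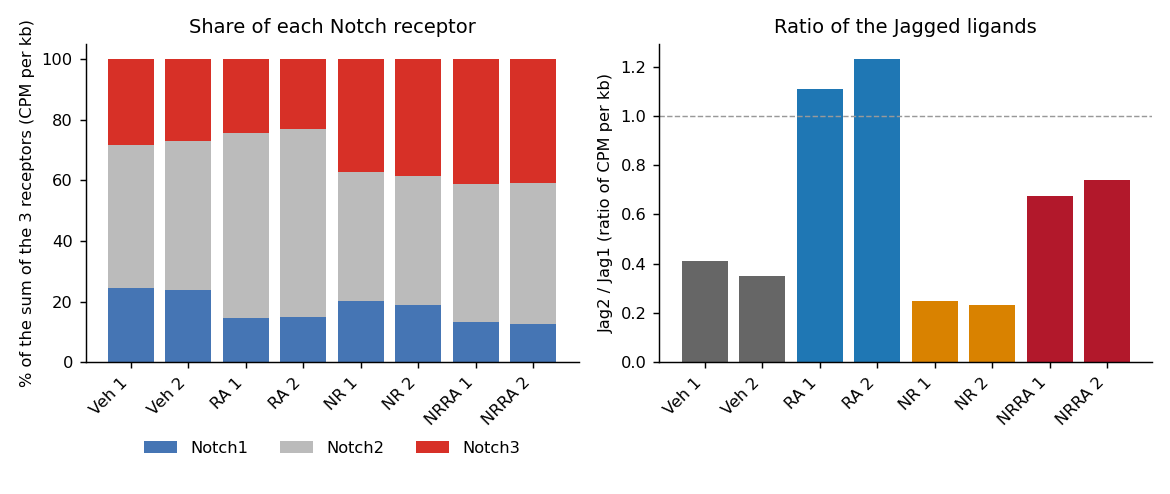
Left, share of each receptor in the sum of the 3 receptors (%, from CPM per kilobase of exon) in each library. Right, ratio of *Jag2* to *Jag1* (from CPM per kilobase) in each library, with a dashed line at 1. The *Notch3* share is 23.1% to 28.4% in complete medium and 37.2% to 41% under nutrient restriction, and the ligand ratio is above 1 in the RA libraries alone.

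Among the target genes, *Hes1* and *Nrarp* fell in all 3 treatments against Veh, whereas the 2 weakly expressed Hey genes went different ways. *Hes1* (ENSMUSG00000022528, chr16:30064384-30067796, plus strand), a repressor of differentiation genes, was at 63.9 and 56.6 CPM in Veh, 45 and 47.5 with RA, 51.7 and 50.9 in NR, and 44.7 and 43.2 with NRRA. The Veh libraries were the highest and the NRRA libraries the lowest. *Hes1* fell by 0.38 on the log2 scale in RA (SE 0.0629, edgeR adjusted p = 1.92e-05), by 0.23 in NR (SE 0.0623, edgeR adjusted p = 0.00327) and by 0.46 in NRRA (SE 0.0619, edgeR adjusted p = 4.75e-07). The fall in NR was log2 -0.12 without Veh replicate 1 (edgeR adjusted p = 0.127) and -0.21 without NR replicate 2 (edgeR adjusted p = 0.0629). NRRA was lower than NR (log2 -0.22, edgeR adjusted p = 0.00432), with an edgeR adjusted p of 0.0673 without NRRA replicate 2. A difference between NRRA and RA was not shown (log2 -0.08, 95% interval -0.21 to 0.05, edgeR adjusted p = 0.356).

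*Nrarp* (ENSMUSG00000078202, chr2:25180758-25183339, plus strand) encodes an ankyrin repeat protein that is a target of Notch and dampens it. It was at 17.2 and 15.7 CPM in Veh, 8.1 and 7.63 with RA, 12.7 and 12.3 in NR, and 11.9 and 12 with NRRA. RA stood lowest, with both restricted conditions between RA and Veh. *Nrarp* fell by 1.07 on the log2 scale in RA (SE 0.102, edgeR adjusted p = 3.25e-09), by 0.40 in NR (SE 0.0945, edgeR adjusted p = 0.00106) and by 0.46 in NRRA (SE 0.0918, edgeR adjusted p = 0.000111). Under nutrient restriction no effect of RA was detected (log2 -0.06, 95% interval -0.25 to 0.13, edgeR adjusted p = 0.651), and NRRA was 1.53-fold above RA (log2 0.61, SE 0.101, edgeR adjusted p = 1.92e-05). In the annotation, 79.4% of the exon bases of *Nrarp* are shared with *Gm38287* on the opposite strand, whose counts were 0.718 to 0.784 of those of *Nrarp* in every library. Whether the counting used the strand is not given in the sources used here, so reads of these genes cannot be told apart. The shared share was 7.5% for *Notch1*, 5.02% for *Notch2*, 6.03% for *Notch3* and 0 for the other 5 genes.

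*Hey1* (ENSMUSG00000040289, chr3:8663359-8667256, minus strand) and *Heyl* (ENSMUSG00000032744, chr4:123233556-123249875, plus strand) encode repressors of the Hey family and had the fewest reads. *Hey1* was at 2.38 and 2.5 CPM in Veh, 3.01 and 2.53 with RA, 3.37 and 3.87 in NR, and 3.14 and 3.6 with NRRA. It rose 1.49-fold in NR (log2 0.58, SE 0.195, edgeR adjusted p = 0.0178) and 1.38-fold in NRRA (log2 0.47, SE 0.191, edgeR adjusted p = 0.0374). In RA it gave log2 0.16 (SE 0.206, edgeR adjusted p = 0.557). Neither rise of *Hey1* passed in DESeq2 (adjusted p = 0.1 and 0.175). The edgeR call was lost in NR without Veh replicate 1 (adjusted p = 0.0715) or NR replicate 2 (0.138), and in NRRA without Veh replicate 1 (0.135), Veh replicate 2 (0.079) or NRRA replicate 2 (0.201).

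*Heyl* was at 5.45 and 4.79 CPM in Veh, 4.89 and 4.37 with RA, 4.63 and 5.89 in NR, and 3.57 and 3.27 with NRRA. The Veh, RA and NR libraries overlapped, and the NRRA libraries were the lowest. *Heyl* fell by 0.58 on the log2 scale in NRRA against Veh (SE 0.163, edgeR adjusted p = 0.00318), while RA gave log2 -0.16 (edgeR adjusted p = 0.454) and NR 0.05 (edgeR adjusted p = 0.824). NRRA was lower than NR (log2 -0.64, SE 0.156, edgeR adjusted p = 0.00157), with -0.45 and an adjusted p of 0.0887 without NR replicate 2. NRRA was also lower than RA (log2 -0.43, SE 0.16, edgeR adjusted p = 0.0349), but that call was lost when any RA or NRRA library was left out (edgeR adjusted p from 0.0569 to 0.187) and in DESeq2 (0.126).

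Per kilobase, *Hes1* was the most abundant of the 9 genes in Veh, NR and NRRA (29.6, 25.2 and 21.6 CPM per kilobase), and *Notch2* was in RA (31.1, with *Hes1* at 22.7). In Veh the order then ran *Notch2* 24.7, *Notch3* 14.2, *Notch1* 12.4, *Jag1* 10.9, *Nrarp* 6.37, *Jag2* 4.13, *Heyl* 1 and *Hey1* 0.747 CPM per kilobase. *Jag1* moved up to the second place in NR with 22.1, just under *Hes1*. *Jag2* at 10.4 stood above *Notch1* at 5.4 in NRRA, the reverse of their order in Veh. Libraries of neighbours in this order did not overlap, apart from *Hey1* and *Heyl* in RA (0.848 and 0.906) and in NR (1.11 and 1.03).

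The response to RA differed most between the media for *Nrarp* and the ligands. For *Nrarp* the interaction was 1.01 (SE 0.138, edgeR adjusted p = 7.57e-06), since RA lowered it in complete medium and no effect was detected under nutrient restriction. It was 0.64 for *Jag1* (SE 0.0837, edgeR adjusted p = 3.51e-06), whose fall with RA was smaller under nutrient restriction. For *Jag2* it was 0.57 (SE 0.0909, edgeR adjusted p = 6.13e-05), whose rise with RA was larger there. *Notch3* gave 0.36 (SE 0.0806, edgeR adjusted p = 0.00263) and *Notch2* -0.21 (SE 0.0593, edgeR adjusted p = 0.0149). The *Notch3* value was 0.28 without RA replicate 2 or NR replicate 1 (edgeR adjusted p = 0.0505 and 0.0738). For *Notch2* the adjusted p was 0.0899, 0.0835 and 0.0631 without RA replicate 1, NRRA replicate 1 and NRRA replicate 2. For *Notch1* it was 0.17 (95% interval 0.02 to 0.31, edgeR adjusted p = 0.133), with an edgeR adjusted p of 0.0365 without Veh replicate 2. The interaction did not pass for *Hes1* (0.16, edgeR adjusted p = 0.277), *Hey1* (-0.27, edgeR adjusted p = 0.572) or *Heyl* (-0.48, edgeR adjusted p = 0.178).

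**Figure D3:**
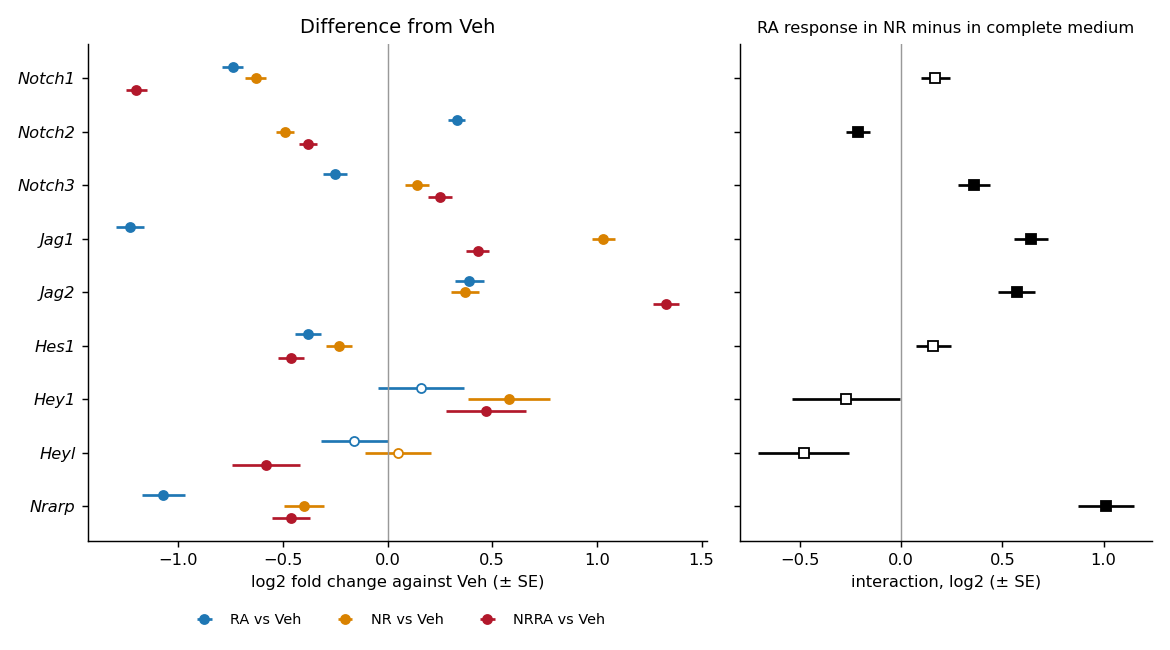
Left, log2 fold change against Veh of the 9 genes in RA, NR and NRRA. Right, the interaction (log2 response to RA under nutrient restriction minus that in complete medium). Bars are SE, and filled symbols have an edgeR adjusted p under 0.05. *Notch1* and *Hes1* lie left of 0 in all 3 treatments, *Jag1* goes from -1.23 in RA to 1.03 in NR, and the interaction is largest for *Nrarp* (1.01).

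Since the libraries hold RNA of germ cells and of fibroblasts, levels of the 9 genes were set beside marker lists. In bulk libraries, fewer cells of a type and less RNA per cell cannot be told apart. The 14 fibroblast markers summed to 12000 to 12200 CPM in Veh, 9450 to 10200 with RA, 24000 to 25200 in NR and 20700 to 21300 with NRRA. Of these markers 2 rose and 8 fell in RA, 12 rose and 1 fell in NR, and 7 rose and 7 fell in NRRA. The order of the sum, RA, Veh, NRRA, NR, is that of *Jag1*. This order was not particular to fibroblasts, since the 5 macrophage markers had it too. Their sum was 203 to 223 CPM with RA, 253 to 255 in Veh, 263 to 277 with NRRA and 286 to 288 in NR. *Col1a1*, the most abundant fibroblast marker, went from 3720 to 3760 CPM in Veh to between 7630 and 8110 in NR. *Twist1*, the least abundant, went from 28.4 to 32.9 to between 35.3 and 36. Per 1000 CPM of fibroblast markers, *Jag1* stood at 5.14 and 5.31 CPM in Veh, 5.22 and 5.26 in NR, 2.68 and 2.8 in RA, and 4.18 and 3.97 in NRRA, a ratio chosen after the values were seen. On it, the RA and NRRA libraries lay below those of Veh and NR. Most of the fibroblast sum was *Col1a1*, *Col1a2* and *Col3a1*, which rose by log2 1.07, 1.27 and 1.54 in NR. The median log2 fold change of the 14 markers in NR was 0.63, beside 1.03 for *Jag1*. The ratio thus mostly sets *Jag1* beside these collagens. The part of fibroblast RNA in the *Jag1* result was not tested.

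Markers of mural and smooth muscle cells summed to 211 to 216 CPM in Veh and 164 to 167 with RA. Their sum was 707 to 722 in NR and 1100 to 1120 with NRRA. The mean levels of *Notch3* had the same order of conditions. Its rise in NR did not hold up, however, and the difference between NRRA and NR did not pass in the main fit (edgeR adjusted p = 0.11). That difference passed after the correction for GC content and length and in a fit to the libraries of both groups alone (edgeR adjusted p = 0.00528 and 0.00834). Of the 10 markers, 8 were tested, and 6 rose and 1 fell in NRRA. *Acta2*, which activated fibroblasts also express, went from 79.5 to 80.6 CPM in Veh to between 878 and 879 in NRRA, where it was most of the sum. *Myocd*, a defining smooth muscle factor, had at most 12 counts in any library. The part of these cells in the *Notch3* result was not tested.

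The 12 markers of undifferentiated spermatogonia summed to 1050 to 1130 CPM in Veh and 495 to 509 with RA. Their sum was 943 to 970 in NR and 372 to 376 with NRRA. The mean levels of *Notch1* and *Hes1* had the same order of conditions. For *Hes1* a difference between NRRA and RA was not shown (edgeR adjusted p = 0.356), and RA was not tested against NR for either gene. Of the 12 markers 1 rose and 11 fell in RA, 3 rose and 5 fell in NR, and 1 rose and 9 fell in NRRA. *Ret*, the most abundant in Veh, gave log2 -2.87 in NRRA, and *Nanos2*, the least abundant, -5.57. In NR the list went both ways, from *Zbtb16* at log2 0.58 to *Bcl6b* at -1.12, with *Ret* at -0.3. The 8 differentiation markers summed to 1520 to 1540 CPM in Veh, 2020 to 2060 with RA, 1240 to 1260 in NR and 2390 to 2450 with NRRA. In Veh and NR much of this sum was *Ccnd2*, at 1260 and 1300 CPM in Veh and 978 and 990 in NR. With NRRA the largest part was *Stra8*, at 917 and 957 CPM, beside 748 and 758 for *Ccnd2*. *Stra8* and *Kit* rose in all 3 treatments, by log2 3.44 and 1.91 in NR. By count, 4 of the 8 rose and 1 fell in RA, 5 rose and 2 fell in NR, and 6 rose and 2 fell in NRRA, so the sum and the counts went opposite ways in NR. The part of the germ cell state in the *Notch1* and *Hes1* results was not tested. Sertoli markers summed to 48.6 to 51.6 CPM in Veh and 103 to 113 with RA. They summed to 51.3 to 56 in NR and 46.1 to 46.8 with NRRA. With RA most of the sum was *Clu*, at 85.4 and 75 CPM. *Fshr* had 3 counts or fewer in every library, whereas *Sox9* reached 988 counts and *Wt1* 261. Leydig markers summed to at most 15.2 CPM, with *Lhcgr* at 3 counts or fewer and *Star* at up to 395. Endothelial markers summed to at most 62.1 CPM, with *Sox17* at 3 counts or fewer and *Erg* at up to 1264. Macrophage markers summed to between 203 and 288 CPM.

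**Figure D4:**
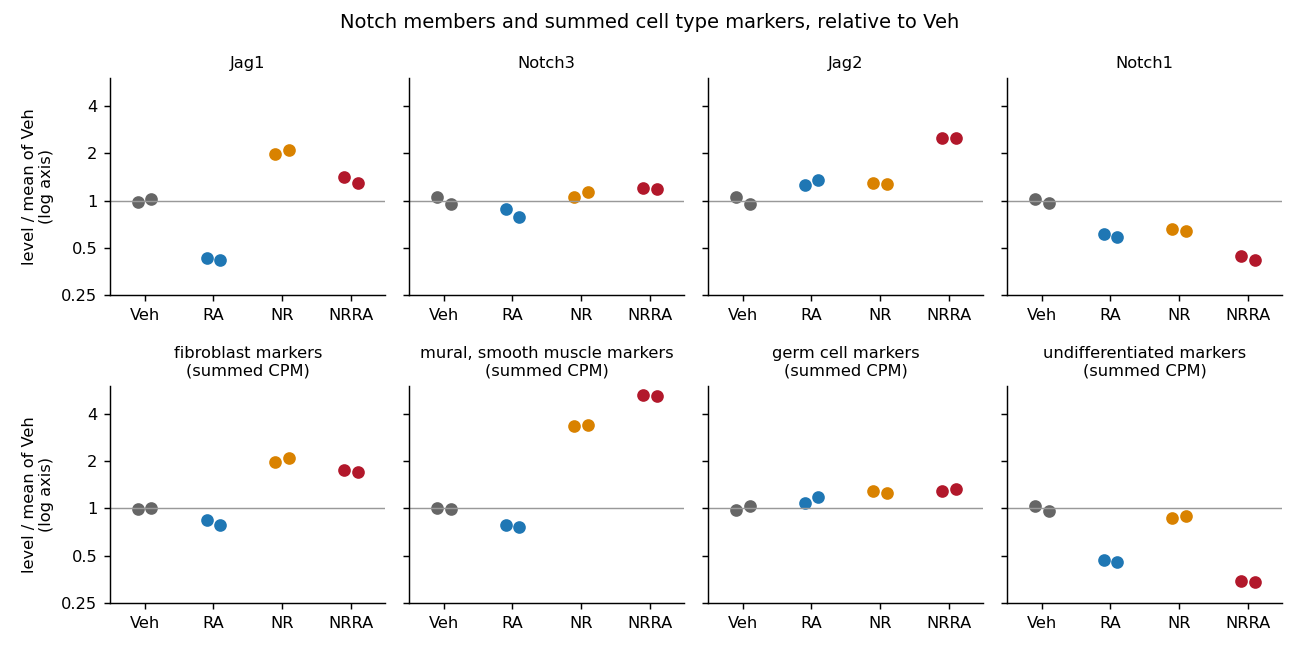
Level of 4 Notch genes (top) and summed CPM of 4 marker lists (bottom) in each library, divided by the mean of Veh, on a log axis. *Jag1* and the fibroblast sum are lowest in RA and highest in NR, *Notch3* and the mural sum are lowest in RA and highest in NRRA, and *Notch1* and the undifferentiated sum are lowest in NRRA.

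The other genes of the pathway were described from 7 lists of 70 genes, of which 67 were tested. *Hes2*, *Hes3* and *Helt* did not pass the filter. In RA 20 of the 67 rose and 25 fell, in NR 19 rose and 17 fell, and in NRRA 23 rose and 21 fell. Among all tested genes 19.8% rose and 23.4% fell with RA, 21.7% rose and 22.2% fell in NR, and 30.1% rose and 28.7% fell with NRRA, which is also the background of the counts of single lists. The medians of their log2 fold changes were -0.03, 0.05 and -0.01, beside -0.019, 0.006 and 0.03 for all tested genes. With a fold of at least 2, 3 rose and 4 fell in RA, 4 rose and 2 fell in NR, and 6 rose and 6 fell in NRRA, beside 7.49%, 8.29% and 15.9% of all tested genes in either direction.

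In the nuclear complex, the DNA-binding core of the pathway fell with nutrient restriction. *Rbpj* was at 175 and 181 CPM in Veh, 202 and 202 with RA, 68 and 69.1 in NR, and 86.9 and 85.1 with NRRA. It fell by 1.38 on the log2 scale in NR (SE 0.0477, edgeR adjusted p = 1.84e-18) and by 1.05 in NRRA (SE 0.0459, edgeR adjusted p = 1.39e-16), and rose by 0.18 in RA (SE 0.0442, edgeR adjusted p = 0.00176). A pseudogene, *Rbpj-ps3*, had 0.0773 to 0.109 of the counts of *Rbpj*, and reads could be split between them. *Rbpjl*, a paralog, fell in RA (log2 -1.94, edgeR adjusted p = 1.47e-06) and NRRA (log2 -1.52, edgeR adjusted p = 4.99e-06). *Maml2*, a Mastermind coactivator, went from 13.7 and 15.5 CPM in Veh to 34.5 and 32.2 in NR, a rise of 1.19 on the log2 scale (edgeR adjusted p = 6.42e-12), and rose by 1.1 in NRRA (edgeR adjusted p = 1.25e-11). Of the 8 genes of this list 2 rose and 4 fell in NRRA. Among the 12 corepressors 5 rose and 4 fell in NRRA.

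Among the other receptors and ligands, 4 of 8 rose and 2 fell in NRRA. *Dlk2*, which encodes a noncanonical ligand of the Delta-like family, rose from 0.248 and 0.417 CPM in Veh to 2.5 and 3.05 in NRRA (log2 3.06, SE 0.355, edgeR adjusted p = 3.86e-08), and by log2 1.38 in NR (edgeR adjusted p = 0.017). *Dll4* rose in RA (log2 1.38, edgeR adjusted p = 0.0177) and NRRA (log2 1.63, edgeR adjusted p = 0.00219), from 0.446 and 0.208 CPM in Veh to 1.21 and 0.867 in NRRA. *Dll1* went the other way, from 4.61 and 5.99 CPM in Veh to 2.32 and 2.38 in NRRA (log2 -1.17, SE 0.182, edgeR adjusted p = 4.08e-06), and 20.5% of its exon bases are shared with *A930024N18Rik*. All 3 of these ligands were below 6 CPM in every library.

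Among the genes that cut the receptors, 2 of 10 rose and 6 fell in RA, 0 rose and 3 fell in NR, and 0 rose and 5 fell in NRRA. In NRRA the largest difference was that of *Furin*, which cleaves the receptor on its way to the surface. *Furin* was at 283 and 256 CPM in Veh, 224 and 211 with RA, 191 and 192 in NR, and 140 and 132 with NRRA (log2 -0.98 in NRRA, SE 0.05, edgeR adjusted p = 3.38e-15). Of the 5 glycosylation genes, 2 rose and 1 fell in NRRA, with the largest difference for *Mfng* (log2 0.63, edgeR adjusted p = 0.00987), a Fringe enzyme that changes which ligands a receptor responds to.

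Of the 18 genes of ubiquitination and endocytosis, 9 rose and 3 fell in NRRA, where *Dtx4* and *Neurl3* passed the 2-fold mark. *Dtx4*, a Deltex ligase, was at 15 and 15 CPM in Veh, 22.6 and 19.5 with RA, 16.1 and 15.1 in NR, and 41.6 and 43 with NRRA. Like *Jag2*, it stood apart in NRRA (log2 1.5, SE 0.0793, edgeR adjusted p = 7.9e-15), with an interaction of 0.97 (SE 0.119, edgeR adjusted p = 1.47e-06). *Dtx1*, a Deltex gene known as a Notch target in lymphocytes, fell by 1.33 on the log2 scale in RA (SE 0.167, edgeR adjusted p = 3.64e-07) and by 0.83 in NRRA (SE 0.15, edgeR adjusted p = 3.39e-05). Its interaction was 0.86 (SE 0.228, edgeR adjusted p = 0.0117). *Neurl3*, a Neuralized-like ligase, rose in NRRA from 2.53 and 1.77 CPM in Veh to 5.54 and 5.68 (log2 1.38, SE 0.179, edgeR adjusted p = 2.56e-07).

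The 6 tested genes of the Hes and Hey families and their relatives did not share a direction. *Hey2*, for which the part of the promoter window with 2 GTGGGAA matches is printed above, was at 0.644 and 0.834 CPM in Veh, 1.99 and 1.6 with RA, 1.78 and 1.33 in NR, and 2.93 and 2.6 with NRRA. It rose in all 3 treatments, by log2 1.25 in RA (edgeR adjusted p = 0.00174), 1.05 in NR (edgeR adjusted p = 0.00875) and 1.9 in NRRA (edgeR adjusted p = 1.44e-06). *Hes5* rose in NR (log2 1.38, edgeR adjusted p = 0.00733), from 0.792 and 0.261 CPM in Veh to 1.3 and 1.48, and 31.8% of its exon bases are shared with another gene. *Hes7*, known from the segmentation clock, rose in RA from 1.34 and 0.834 CPM in Veh to 2.6 and 2.6 (log2 1.25, edgeR adjusted p = 0.000419) and fell by 0.98 on the log2 scale in NR (edgeR adjusted p = 0.0321), with 12.9% of its exon bases shared. The clock-related repressors *Bhlhe40* and *Bhlhe41* fell in NRRA by 1.8 and 2.22 on the log2 scale (edgeR adjusted p = 7.38e-18 and 1.99e-19). *Bhlhe40* fell in NR (log2 -1.32, edgeR adjusted p = 7.86e-15) and in RA (log2 -0.64, edgeR adjusted p = 7.24e-09). *Bhlhe41* fell with RA from 52.6 and 51.4 CPM to 11.5 and 11.4 (log2 -2.18, edgeR adjusted p = 3.49e-18). Of the exon bases of *Bhlhe41*, 19% are shared with another gene.

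**Figure D5:**
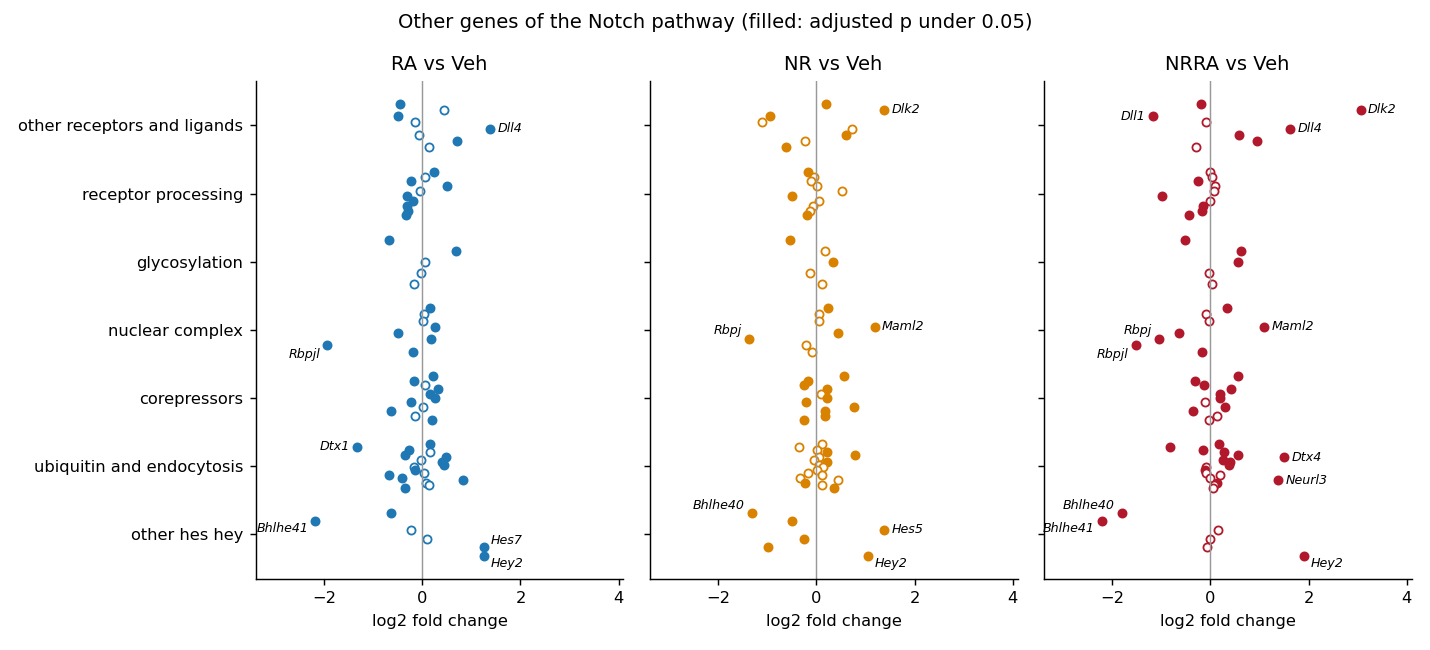
Log2 fold change against Veh of the other tested genes of the Notch pathway that are reported here, by list, in RA, NR and NRRA. Filled points have an edgeR adjusted p under 0.05, and those with a fold of at least 2 are named. *Rbpj* lies at -1.38 in NR and -1.05 in NRRA, and *Dlk2* at 3.06 in NRRA.

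The genes whose pattern was most like that of each member were found by Pearson r of log2 CPM over the 8 libraries, among the 14805 genes whose mean count was 50 or more. The 8 libraries are 4 conditions with 2 libraries each, so many genes share a pattern. *Notch1* was most like *Drosha* and *Hoxc13* (r = 0.998 for both), and 1432 genes had r above 0.9 with it. *Notch2* was most like *Peak1* and its antisense gene *Peak1os* (0.995 for both), and *Notch3* like *Htatip2* (0.991) and *Tsc2* (0.989). *Jag1* was most like *Spats2l* and *Col6a2* (0.997 for both), the latter a collagen gene of fibroblasts. *Jag2* was most like *Zswim5* (0.996) and *Caskin1* (0.994), and *Hes1* like *Aen* (0.991) and *Fbl* (0.988), which encodes the nucleolar protein fibrillarin. *Hey1* was most like *Chst10* and *Zfp14* (0.981 for both), and *Heyl* like *Snhg4* (0.962) and *Sdhc* (0.955). *Nrarp* was most like its overlapping gene *Gm38287* (0.994) and like *Sptb* (0.987), with 115 genes above 0.9.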

How the data were processed

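Poly(A) RNA of 8 SSC culture libraries (Veh, RA, NR and NRRA, 2 each) was sequenced as stranded libraries. The authors demultiplexed reads with bcl2fastq, mapped them to mm10 with STAR and counted them with featureCounts (per the labels, versions 2.6.1c and 1.6.4). The study's reporting summary names another STAR version. The deposited values are whole-number counts per gene without normalization. The gene annotation and the strand setting are not given in the sources used here. All 8 columns took their sample from its label, with 0 columns left over. Of 55421 identifiers, 55240 were found in GENCODE M21 (GRCm38), the source of coordinates, exon lengths and overlaps. Replicates of a condition differed by more than sampling noise (chi-square per gene 1.58 to 3.93), so all were kept. Promoter windows are from RefSeq (GRCm38.p6).

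Counts were filtered with filterByExpr, normalized with TMM and modelled by edgeR's quasi-likelihood fit (1 coefficient per condition, 4 residual degrees of freedom, biological coefficient of variation 3.35%). The study's methods used DESeq2, which was an alternative here. The other alternatives were DESeq2 size factors, no filter, a filter at 1 CPM, a fold of at least 2, offsets for GC content and length (known for 20448 genes), a replicate block, fits to the libraries of both groups alone and leaving out each library. Intervals are at 95%. R 4.3.3, edgeR 4.0.16, limma 3.58.1, DESeq2 1.42.0, Python 3.11.15 and matplotlib 3.10.9 were used.

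The 9 genes and all lists were chosen with earlier results of these data known. Of the other pathway genes, those with an adjusted p under 0.05 and a fold of at least 2 in RA, NR or NRRA against Veh are named, and in a list with none the gene with the largest difference in NRRA. A gene that met this rule is not reported here, though the list counts include it. For likeness, the 2 genes with the highest r are named. *Gcna*, a listed germ cell marker, had no row.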

Additional observations from a re-analysis of the deposited data

Results flagged for a closer look

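For 5 of the 9 genes the response to RA differed between the media by the test of the difference itself (edgeR's quasi-likelihood test, Benjamini-Hochberg adjusted over 20477 genes). The log2 response under nutrient restriction minus that in complete medium was 1.01 for *Nrarp* (adjusted p = 7.57e-06), 0.64 for *Jag1* (adjusted p = 3.51e-06), 0.57 for *Jag2* (adjusted p = 6.13e-05), 0.36 for *Notch3* (adjusted p = 0.00263) and -0.21 for *Notch2* (adjusted p = 0.0149). The *Nrarp*, *Jag1* and *Jag2* values passed in each fit with 1 library left out and in DESeq2, whereas those of *Notch3* and *Notch2* did not pass in every fit with a library left out. *Gm38287*, which shares most of the exon bases of *Nrarp*, had 0.718 to 0.784 of its counts in each library.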

How the results depend on the processing

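Over 54 log2 values (9 genes in 5 comparisons and the interaction), 49 kept their direction and their side of the threshold in DESeq2 and 5 did not pass, and with DESeq2 size factors in edgeR 52 stayed. Genes higher in NR then numbered 2 in DESeq2 in place of 4, and genes higher in NRRA than NR 1 in place of 2 in both. With a fold of at least 2, the counts of higher and lower genes were 0 and 2 in RA, 1 and 0 in NR, 1 and 1 in NRRA, 1 and 0 in NRRA against RA, 0 and 0 in NRRA against NR, and 1 and 0 for the interaction. Leaving out 1 library gave 2 to 2 higher and 4 to 5 lower genes in RA, 2 to 4 and 3 to 4 in NR, 3 to 4 and 5 to 5 in NRRA, 4 to 4 and 2 to 3 in NRRA against RA, 1 to 2 and 3 to 4 in NRRA against NR, and 3 to 5 positive and 0 to 1 negative interactions. *Heyl* in NR turned to log2 -0.02 without Veh replicate 2 and to -0.13 without NR replicate 2, in a range of -0.13 to 0.22 over the left-out libraries, none of which passed. The cause of these changes was not tested. The no-filter and GC and length fits kept 53 of 54 and the 1 CPM filter 54. The replicate block kept 54 of 54, and with GC and length offsets 53. Under the block alone, other pathway genes lower in NRRA numbered 20 in place of 21, and positive interactions 10 in place of 11. No shared effect of the replicate number was seen, as differences between replicates correlated by -0.033 to 0.023 between conditions. Whether replicates with the same number share a culture is not given in the sources used here. With 2 libraries a condition and 48 to 155 reads a library, *Hey1* and *Heyl* are the least precise of the 9 genes.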
